A study of Saccharomyces cerevisiae with 13 samples.

Results

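The 10 genes described here encode enzymes of ergosterol synthesis in budding yeast: the HMG-CoA reductases HMG1 and HMG2, the squalene epoxidase ERG1, the lanosterol demethylase ERG11, the methyl sterol oxidase ERG25, the sterol dehydrogenase ERG26, the methyltransferase ERG6, the isomerase ERG2 and the desaturases ERG3 and ERG5. They were listed by systematic name, with earlier results of these data known. All 10 were measured on all 13 arrays, out of 6205 genes on the array and 6151 with enough values to be tested. The cells were of the W303 background, labelled as mutant for YOX1 and YHP1, which encode homeodomain repressors of cell cycle genes. They had been held in G1 by alpha factor, the mating pheromone, then released into the rich medium YEPD, and sampled every 10 min from 0 to 120 min, across 2 cell cycles per the labels. Each time point is 1 two-colour array and 1 sample, with no replicates. Its Cy5 channel holds the time point and its Cy3 channel an asynchronous wild-type culture grown overnight in YEPD, so a value above 0 means more of the RNA in the mutant sample than in that reference. The labels do not say what kind of mutation each gene carries. A wild-type time course was not analysed here.

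Ergosterol is the main sterol of yeast membranes, as cholesterol is in animals. Its synthesis starts from acetyl-CoA and runs through mevalonate (the step of HMG1 and HMG2) to farnesyl pyrophosphate and squalene. A series of reactions, several of them dependent on oxygen or heme, then closes and demethylates the sterol rings and desaturates rings and side chain. The zinc cluster factors Upc2 and Ecm22 raise transcription of many of these genes when sterol is low.

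Each array gave values for 6062 to 6176 genes, and correlations between arrays across genes ran from 0.376 to 0.858. Of the genes in the strain label, YHP1 was below the reference on 13 of 13 arrays (1.88-fold lower on average, limma adjusted p = 9.10e-08). Its values were not level, and ran from -0.50 to -0.12 log10 units. YOX1 was below it on 10 of 13, moved between -0.53 and 0.12 log10 units, and passed the test for a cycle (limma adjusted p = 0.00775), so a steady loss of its RNA was not seen and the mutant status rests on the label. For orientation in the cycle, the mean of 32 G1/S genes had its fitted peak at 19.4 min after release, the S phase histone gene HTA1 at 29.2 ± 0.977 min (SE) and the mitotic cyclin gene CLB2 at 46.8 ± 1.69 min. The deposited values were read as log10 ratios, a base inferred from the values, since no label states it. All folds given here rest on it, as do counts at a fold limit. Adjusted p-values do not.

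Most of the ergosterol genes were low at 10 and 20 min. All 10 were above their own mean at 60 and 70 min and below it at 80 to 100 min. ERG6 was not high at 60 and 70 min (0.0092 and -0.015), where it lay below its values at 30 and 40 min (0.062 and 0.050). The measure here is each gene's value on an array against that gene's own mean over the 13 arrays. At 60 min and again at 70 min, 10 of 10 members were above their own mean, when 51.1% and 47.2% of all tested genes were above theirs. At 80, 90 and 100 min 0 of 10 members were above it, against 46.7%, 45.6% and 47.7% of all genes. By 120 min 9 of 10 were again above. In the first cycle the low arrays were those of 10 and 20 min, with 8 of 10 members below their mean on each. ERG26 and ERG6 were the members above their mean on both. The average log10 ratio over the 10 genes was -0.069 at 10 min, -0.10 at 20 min, 0.10 at 60 min, 0.055 at 70 min, -0.066 at 80 min and 0.051 at 120 min. The low stretch came earlier in the first cycle than in the second. At 40 min 7 of 10 members were above their mean, whereas at 100 min, 60 min later, none was.

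**Figure D1:**
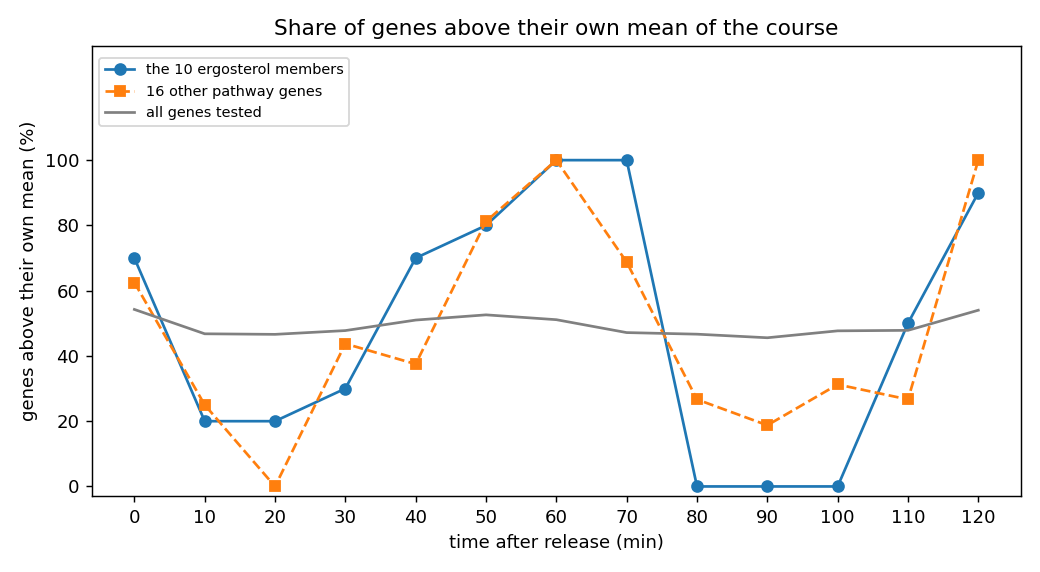
The percentage of genes above their own mean of the course (y axis) at each time after release in min (x axis), for the 10 ergosterol members, 16 other genes of the pathway and all genes tested. The members stand at 10 of 10 at 60 and 70 min and at 0 of 10 at 80 to 100 min, while all genes stay between 45.6% and 54.2%.

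The first test asked which members followed a cosine with a period of 62 min, fitted beside a linear trend in limma. HMG1, ERG1, ERG26 and ERG5 passed it, which is 4 of 10 members against 15.0% of all genes tested. Their fitted swing, the peak of the curve over its trough, was 1.87-fold for ERG5, 1.78-fold for HMG1, 1.43-fold for ERG1 and 1.36-fold for ERG26. ERG3 and ERG25 missed the threshold with swings of 1.61-fold and 1.39-fold (limma adjusted p = 0.172 and 0.0698). The median swing was 1.37-fold over the 10 members and 1.19-fold over all genes tested. The members' median scatter around the curve was also larger, 0.054 against 0.044 log10 units, and a fitted swing grows with scatter.

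**Figure D2:**
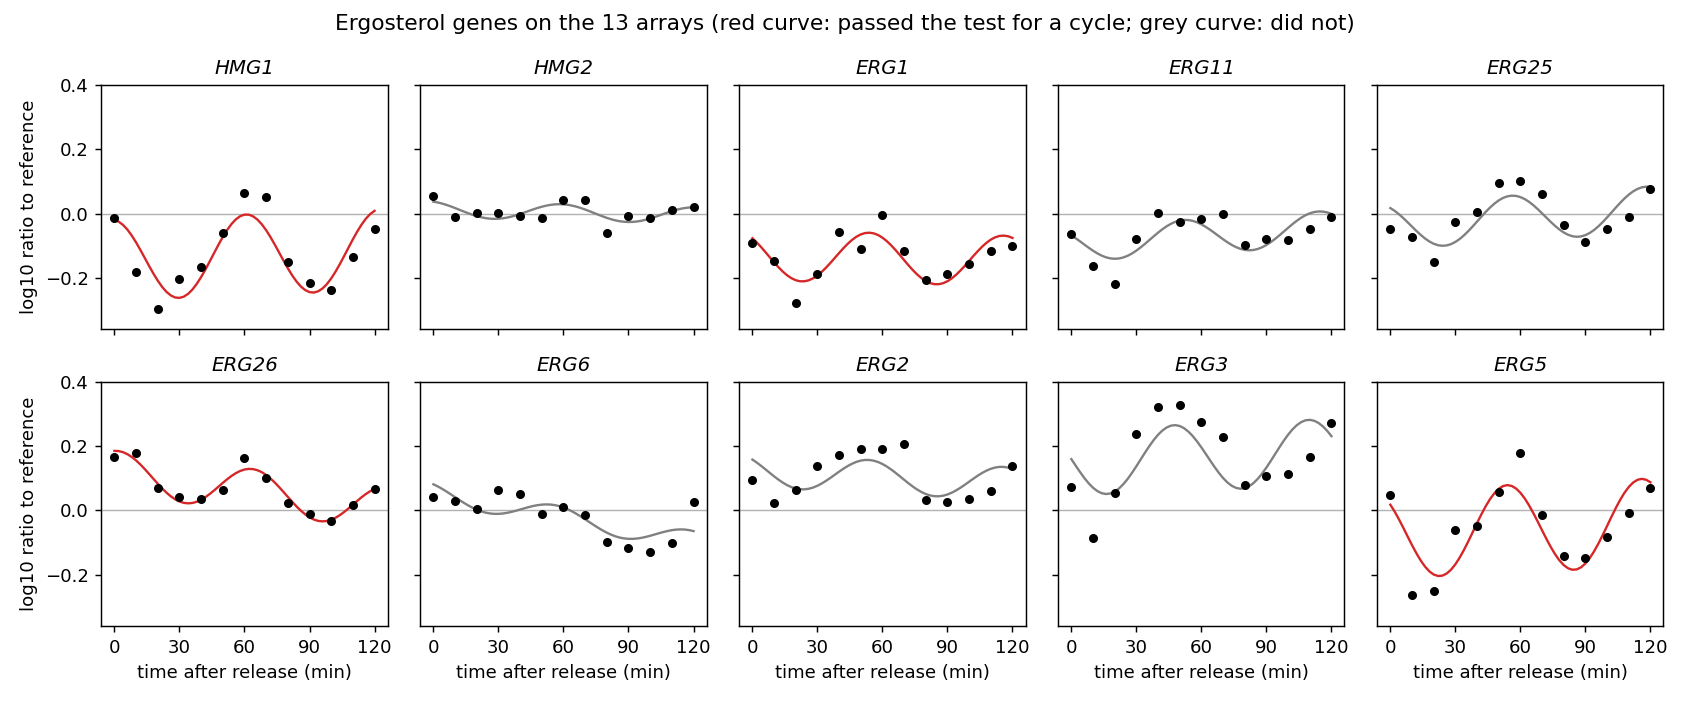
The log10 ratio to the reference (y axis) of each of the 10 members on the 13 arrays (points) by time after release in min (x axis), with the fitted curve of cosine and linear time, red where the test for a cycle passed. HMG1 and ERG5 make the widest swings among the genes that passed, 1.78-fold and 1.87-fold, and HMG2 stays between -0.061 and 0.055 on all arrays.

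The mevalonate step is catalysed by both HMG-CoA reductases, whose reaction is a main control point of sterol synthesis. HMG1 (YML075C), the isozyme known to supply most of the activity in aerobic cells, had a log10 ratio of -0.012 at 0 min and then -0.18, -0.30, -0.20, -0.17 and -0.059 from 10 to 50 min. It stood at 0.063 and 0.053 at 60 and 70 min, the only arrays on which it was above the reference, then at -0.15, -0.22, -0.24 and -0.13 from 80 to 110 min and at -0.047 at 120 min. Low values around 20 and around 100 min thus flanked a single crest at 60 to 70 min. The fitted peak was at 60.7 ± 2.12 min (SE) and the limma adjusted p for a cycle was 0.0106.

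HMG2 (YLR450W), the isozyme known to be more prominent when oxygen is scarce and whose protein is degraded in response to sterol pathway intermediates, had a narrow range. Its values lay between -0.061 at 80 min and 0.055 at 0 min with a median of 0.0022, and the fitted swing of 1.12-fold did not pass (limma adjusted p = 0.336). HMG2 shared the higher values at 60 and 70 min (0.043 on both arrays) but not the low values of 10 to 40 min, which were -0.0096 to 0.0031.

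Set against HMG2 on the same arrays, HMG1 was lower relative to the reference on 11 of 13, and the exceptions were the arrays of 60 and 70 min. The mean difference in log10 ratio, HMG1 minus HMG2, was -0.13 ± 0.096 (SD, n = 13 arrays), or 1.34-fold (exact two-sided sign-flip permutation p = 0.000977, where the smallest possible is 0.000244). The difference ran from -0.30 at 20 min to 0.020 at 60 min, and itself followed the cycle with a 1.59-fold swing (p = 0.0144 in 100000 permutations of the time order, a test added after the values were seen). Arrays of 1 culture are not independent cultures, so these p-values describe this course. Both tests also treat the arrays as independent of each other, while neighbouring arrays had similar differences, so the p-values can be too small. HMG2 varied little, so the swing of the difference is largely that of HMG1. Cross-hybridisation between the probes of these related genes was not tested.

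ERG1 (YGR175C) encodes squalene epoxidase, which puts the first oxygen onto squalene and is the target of allylamine antifungals. It was below the reference on all 13 arrays, from -0.28 at 20 min to -0.0058 at 60 min, with a median of -0.12. The lowest values fell at 20 min in the first cycle and at 80 min (-0.21) in the second. Its fitted peak was at 53.9 ± 2.40 min (limma adjusted p = 0.0280). That call was lost without the 20, 30, 60 or 80 min array, with adjusted p from 0.0539 to 0.0745, and with a period 5 min shorter (0.0923) or a second harmonic (0.0865).

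ERG11 (YHR007C), the cytochrome P450 that removes the C-14 methyl group of lanosterol and the target of azole antifungals, had its low values early. It read -0.063 at 0 min, -0.16 at 10 min and -0.22 at 20 min, was 0.00057 at 40 min and -0.00077 at 70 min, and returned to -0.10 at 80 min. The second trough was thus less deep than the first: the range was 0.22 log10 units over 10 to 60 min and 0.098 over 70 to 120 min. The swing was 1.28-fold and missed the threshold (limma adjusted p = 0.162).

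ERG25 (YGR060W) and ERG26 (YGL001C) act one after the other in removing the methyl groups at C-4 of the sterol, in a complex with ERG27 and ERG28. ERG25 was lowest at 20 min (-0.15), stood at 0.10 at both 50 and 60 min, was low again at 90 min (-0.087) and reached 0.077 at 120 min. It missed the threshold over the 13 arrays (limma adjusted p = 0.0698). ERG25 passed it without the 0 min array (0.0351), without the 110 min array (0.0441) or without the 0 and 10 min arrays (0.0176). It also passed with array weights (0.0144) or with a period 5 min longer (0.0137).

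ERG26 had the latest fitted peak in the cycle, though within error of that of HMG1. It began high, at 0.17 and 0.18 at 0 and 10 min, although 8 of the 10 genes were below their own mean at 10 min. It then read 0.069, 0.043, 0.036 and 0.064 from 20 to 50 min, 0.16 at 60 min and 0.10 at 70 min, and was lowest at 100 min (-0.032). That peak was at 1.78 ± 1.87 min, which with a period of 62 min follows directly on the peak of HMG1. The limma adjusted p of 0.00711 was the lowest of the 10, and the residual scatter around its curve, 0.020 log10 units, was the smallest among them. The ERG26 and HMG1 calls held on leaving out each array in turn. Both were lost with a second harmonic (limma adjusted p = 0.0665 and 0.0690), and that of HMG1 with a period 5 min shorter (0.0960).

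ERG6 (YML008C), which methylates the sterol side chain in a step that animals lack, had a small swing of 1.16-fold (limma adjusted p = 0.439). Its values were between -0.015 and 0.062 on the 8 arrays from 0 to 70 min, between -0.13 and -0.10 on the 4 arrays from 80 to 110 min, and 0.025 at 120 min. So the second low stretch, which all members shared, was present in ERG6 and the first was not.

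ERG2 (YMR202W), the C-8 sterol isomerase, was above the reference on all 13 arrays. It read 0.094 at 0 min, 0.023 at 10 min, 0.063 at 20 min, then 0.14 to 0.21 from 30 to 70 min, 0.026 to 0.061 from 80 to 110 min and 0.14 at 120 min. The step between 70 min (0.21) and 80 min (0.031) was its widest between neighbouring arrays. The fitted swing was 1.27-fold and missed the threshold (limma adjusted p = 0.293), which it passed without the 0 and 10 min arrays (0.0350).

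ERG3 (YLR056W), the C-5 sterol desaturase, covered 0.41 log10 units in the first cycle. It was -0.085 at 10 min, its one value below the reference, then 0.054, 0.24, 0.32, 0.33, 0.27 and 0.23 from 20 to 70 min, and 0.078, 0.11, 0.11, 0.16 and 0.27 from 80 to 120 min. ERG3 was thus already high at 30 min, when 7 of 10 members were below their own mean. Its fitted peak, 47.4 ± 3.41 min, was the earliest of the members when that of ERG26 is counted 1 period later, and the 1.61-fold swing came with the largest scatter around the curve, 0.11 log10 units. It passed with array weights (limma adjusted p = 0.0399), with a period 5 min longer (0.0434) and without the 0 and 10 min arrays (0.0222).

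ERG5 (YMR015C), the cytochrome P450 that desaturates the side chain at C-22, had the widest fitted swing of the 10 genes, 1.87-fold (1.21-fold if the values are base 2 logs). It read 0.048 at 0 min, -0.26 and -0.25 at 10 and 20 min, -0.062 and -0.047 at 30 and 40 min, 0.059 at 50 min and 0.18 at 60 min. The second cycle gave -0.013 at 70 min, -0.14 and -0.15 at 80 and 90 min, -0.082 and -0.0085 at 100 and 110 min and 0.070 at 120 min. The fitted peak was at 53.8 ± 2.21 min (limma adjusted p = 0.0191). The call was lost without the 20 min array (0.0568) or the 50 min array (0.0508), and with a period 5 min shorter (0.124).

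All 10 fitted peaks lay after 45 min or in the first 7 min of the cycle, where 45.6% of all tested genes had theirs. No basis outside these data is given for this window, which encloses the members' own extremes, ERG3 (47.4 min) and ERG26 (1.78 min). The count of 10 therefore describes where the peaks lay and cannot test whether they group. These peaks include those of members that missed the threshold, such as HMG2 and ERG6, which had the largest SEs. In time order, with ERG26 counted 1 period later, they ran from ERG3 through ERG11 (51.9 ± 3.68 min), ERG2 (53.6 ± 4.86), ERG5, ERG1, ERG25 (55.8 ± 3.10), ERG6 (56.1 ± 6.45), HMG2 (58.7 ± 5.63) and HMG1 to ERG26. Neighbours in that order lay within the sum of their SEs. Of the genes that passed, ERG5 and ERG1 peaked at the same time within error, and HMG1 and ERG26 peaked later than both by more than the sum of the SEs, a difference that was not tested. The count of members passing was 2 without the 20 min array (576 of all genes in the same fit), 1 with a period 5 min shorter (455) or with a second harmonic (212), and 7 without the 0 and 10 min arrays (905).

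**Figure D3:**
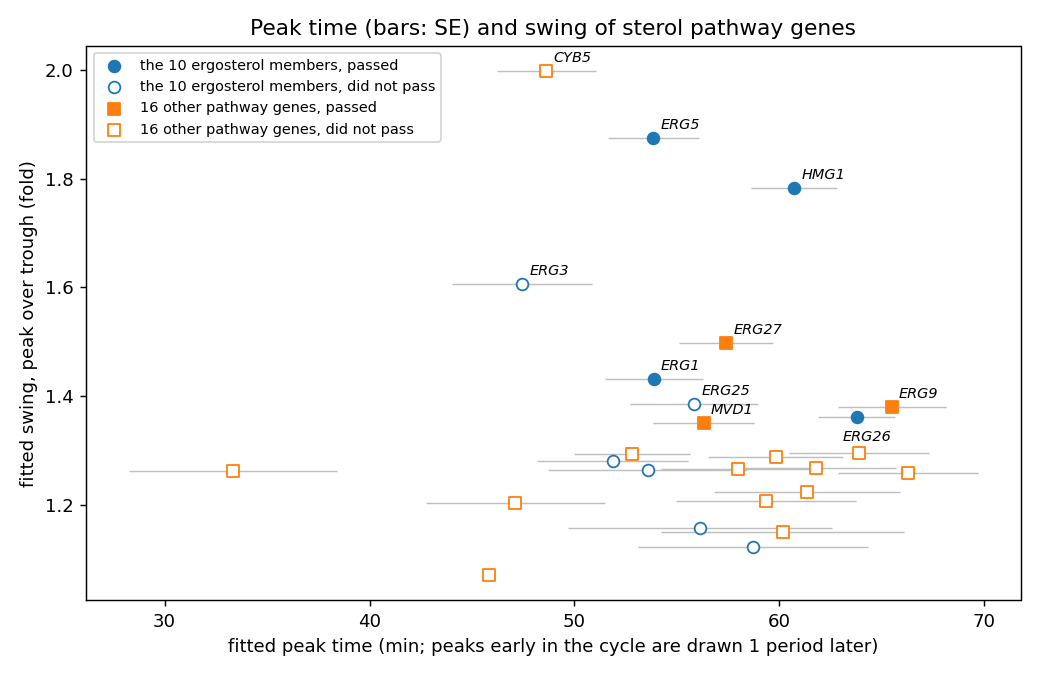
Fitted peak time in min with its SE (x axis, none drawn for NCP1, which lacks 2 arrays) and fitted swing as a fold (y axis) for the 10 members (circles) and 16 other pathway genes (squares), filled where the test for a cycle passed. Peaks in the first minutes of the cycle, such as that of ERG26 at 1.78 min, are drawn 1 period later; ERG4 at 33.3 min lies apart from the rest.

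The swing was wider in the first cycle for most members, as it was for most genes. The range over 10 to 60 min was larger than that over 70 to 120 min in 7 of 10 members and in 70.4% of all genes, with median ratios of 1.38 and 1.39. ERG1 (0.27 against 0.11 log10 units), ERG11, ERG3 (0.41 against 0.19) and ERG5 (0.44 against 0.22) were at least 2.01 times wider in the first cycle. HMG1 kept most of its range (0.36 against 0.29), and HMG2, ERG6 and ERG2 had the wider range over 70 to 120 min. In HMG1, HMG2 and ERG2 the highest value of that window was the one at 70 min. On that array all 10 members were still above their own mean. HMG1 read 0.053 at 70 min and -0.047 at 120 min, and ERG2 0.21 and 0.14. For these genes the second range therefore depends on which cycle the 70 min array is counted in.

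Pairs of members were compared by their profiles over the 13 arrays, which share a culture and a reference. Pearson's r had a median of 0.565 over the 45 pairs and was above 0.5 in 27. Pairs of all genes were not counted in the same way, so whether that number is high was not tested. The closest pairs were ERG25 with ERG5 (r = 0.846), ERG2 with ERG3 (0.845) and ERG11 with ERG25 (0.843). The 2 negative values both involved ERG26, with ERG3 (-0.188) and with ERG11 (-0.052). ERG26 was closest to ERG6 (0.662) and stood at 0.204 with ERG25, the enzyme of the step before it.

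The second test asked how each member stood against the wild-type reference over the whole course. Genes of this pathway did not shift one way. ERG3, ERG2 and ERG26 were higher than the reference and HMG1, ERG1, ERG11 and ERG5 lower by the limma test, which is 3 and 4 of 10. Among all genes tested 33.6% were called higher and 32.0% lower, 65.6% in all, so the 7 of 10 members called are close to the share of the genome. ERG3 was 1.46-fold higher (mean log10 ratio 0.17 ± 0.026, SE, n = 13 arrays, limma adjusted p = 6.18e-05) and ERG2 1.27-fold higher (0.10 ± 0.017, adjusted p = 0.000101). ERG1 was 1.37-fold lower (-0.14 ± 0.013, adjusted p = 4.51e-07) and HMG1 1.34-fold lower (-0.13 ± 0.017, adjusted p = 1.84e-05).

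The smaller differences were 1.17-fold lower for ERG11, 1.16-fold higher for ERG26 and 1.14-fold lower for ERG5, and 3 members were not called, namely HMG2, ERG25 and ERG6. No member differed by at least 1.5-fold, a limit that 6.91% of all genes passed. The ERG5 call was lost without the 20, 100, 110 or 120 min array (limma adjusted p from 0.0501 to 0.0645). Genotype, synchrony, culture and dye all differ between the channels in the same way on every array, and cannot be told apart in these differences.

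**Figure D4:**
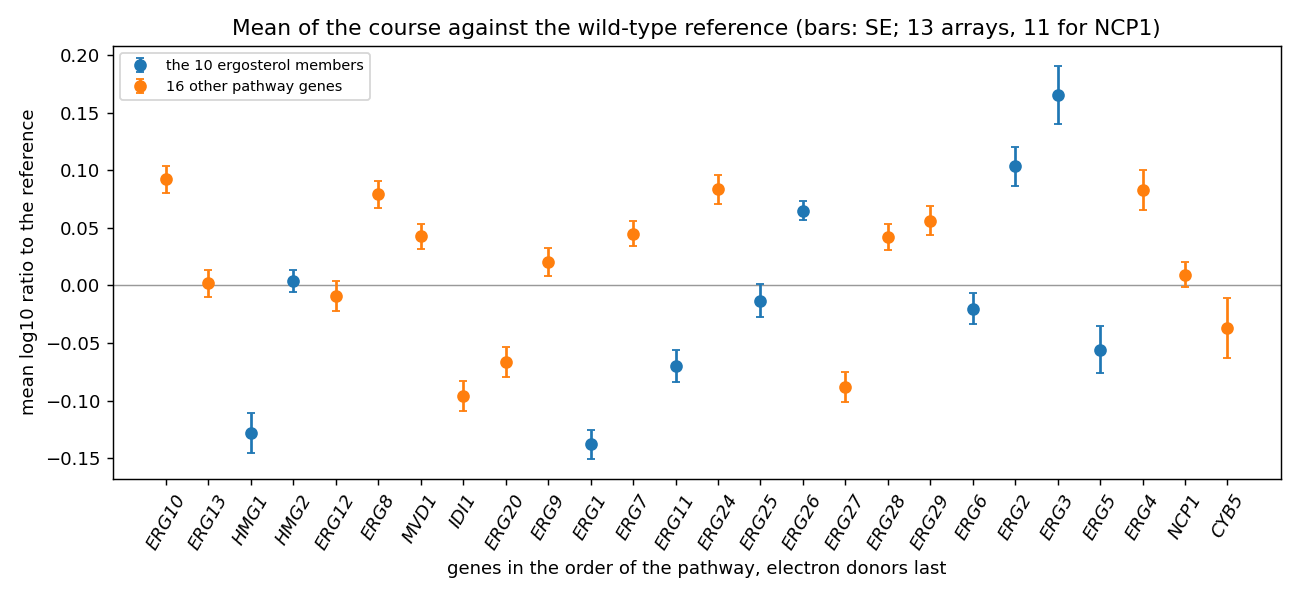
The mean log10 ratio to the wild-type reference over the course with its SE (y axis) for the genes of the pathway in reaction order (x axis), the 10 members in blue and 16 other genes in orange. Values run from -0.14 for ERG1 to 0.17 for ERG3, with members on both sides of 0.

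Another test set the 0 min array, from the arrested cells, against the curve of the later arrays. It called 0 of 10 members in limma, against 1.70% of all genes. At an unadjusted p under 0.05 there were 0 of 10, against 11.6% of all genes. The largest departures were -0.13 ± 0.098 log10 units (SE) in ERG3 (adjusted p = 0.734) and -0.11 ± 0.054 in ERG25 (0.444). A robust fit called ERG3 (adjusted p = 0.00980). The comparison rests on 1 array.

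The last test asked for a steady drift from the first array to the last. It called 0 of 10 members in limma and 2.31% of all genes. At an unadjusted p under 0.05 there were 2 of 10 members and 17.7% of all genes, which are close shares. These 2 were ERG6, at -0.075 ± 0.023 log10 units per 60 min (SE, adjusted p = 0.107), and ERG26, at -0.054 ± 0.014 (adjusted p = 0.0626). Both passed with array weights (0.0182 and 0.0392) and with a robust fit (0.00995 and 0.00782), and ERG6 without the 120 min array (0.0188).

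Of 16 other genes of the mevalonate and ergosterol pathway, 3 passed the test for a cycle, ERG27, MVD1 and ERG9, near the 15.0% of all genes. ERG27 (YLR100W), the ketoreductase that works in the C-4 demethylation complex with ERG25 and ERG26, had a fitted swing of 1.5-fold peaking at 57.4 ± 2.29 min (limma adjusted p = 0.0165). It was -0.25 at 20 min, 0.093 at 60 min and -0.15 at 90 min. MVD1, the mevalonate pyrophosphate decarboxylase, swung 1.35-fold and peaked at 56.3 ± 2.47 min (limma adjusted p = 0.0258). It also drifted by -0.078 log10 units per 60 min (adjusted p = 0.0429), from 0.21 at 0 min to 0.071 at 120 min. ERG9, the squalene synthase, swung 1.38-fold and peaked at 3.48 ± 2.64 min (limma adjusted p = 0.0410), and was 0.17 at 60 min and 0.13 at 120 min. None of the 16 differed from the reference by at least 1.5-fold with an adjusted p that passed, 8 were called higher and 3 lower, close to the 65.6% of all genes called either way. At 0 min 0 were called (limma; 4 of 16 at an unadjusted p under 0.05, against 11.6% of all genes).

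The arrays on which these 16 genes were low and high were in part those of the members. At 20 min 0 of 16 were above their own mean, and at 60 and at 120 min 16 of 16 were. At 40 min 6 of 16 were, against 7 of 10 members, and at 70 min 11 of 16, against 10 of 10. At 80, 90 and 100 min 4, 3 and 5 of these genes were above it, against 0 of 10 members (NCP1 has no value at 80 min). Their correlation with the mean profile of the 10 members had a median of 0.718 (NCP1 over 11 arrays). Over all genes outside the members with 13 values, such pathway genes included, the median was 0.070. The correlation was above 0.5 in 12 of 16, against 17.4% of all those genes. ERG20 (r = 0.145) and ERG4 (0.130) were least like the members. ERG4, the last enzyme of the pathway, had its fitted peak at 33.3 ± 5.09 min, though its swing of 1.26-fold did not pass (limma adjusted p = 0.295).

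CYB5, picked out after its values were seen, encodes cytochrome b5, which passes electrons to oxygen-dependent enzymes of the pathway. It had the widest fitted swing of all 26 pathway genes, 2.00-fold with a peak at 48.6 ± 2.42 min, and just missed the threshold (limma adjusted p = 0.0504). Its values were -0.34 and -0.26 at 10 and 20 min, 0.19 at 60 min and -0.12 at 90 min. Among the members its profile was closest to ERG5 (r = 0.897), ERG3 (0.892) and ERG11 (0.852) over the 13 arrays. NCP1, the reductase that serves the cytochromes P450, had a swing of 1.07-fold over the 11 arrays that measured it (limma adjusted p = 0.811).

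Among all 5664 genes outside the members with values on every array, 5 were most like the mean profile of the 10 by Pearson's r over the 13 arrays. They were PUP1, a proteasome subunit gene (0.912), PMU1 (0.899), APT1, an adenine phosphoribosyltransferase gene (0.898), ERG7 (0.894) and AKR1, a palmitoyltransferase gene (0.883). ERG7 encodes the lanosterol synthase that acts directly after ERG1, and had a swing of 1.29-fold (limma adjusted p = 0.0629). The most opposite were DSF2 (-0.900), CWP1, a cell wall mannoprotein gene (-0.890), MCD4 (-0.886), OPY2 (-0.882) and GPH1, the glycogen phosphorylase gene (-0.880). Their fitted peaks lay between 22.1 and 25.6 min.

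Regulators of sterol genes passed the test for a cycle in 0 of 10 cases (limma). At an unadjusted p under 0.05 there were 3 of 10, near the 33.3% of all genes. UPC2 was 1.13-fold lower than the reference and ECM22 1.15-fold higher (limma adjusted p = 0.000122 and 0.000925). ROX1, a repressor of hypoxic genes, was below the reference on 13 of 13 arrays, 1.32-fold on average (adjusted p = 9.20e-06), and HAP1, a heme-responsive activator, was 1.22-fold higher (0.000904). In all 5 regulators were called higher and 2 lower, against 33.6% and 32.0% of all genes.

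Genes for sterol esters and sterol uptake, 8 in number, were also not called periodic (0 of 8 in limma, 2 at an unadjusted p under 0.05, against 15.0% and 33.3% of all genes). YEH1, a steryl ester hydrolase gene, was lower than the reference on 13 of 13 arrays, by 1.47-fold (limma adjusted p = 1.05e-08). AUS1, a sterol importer gene used when oxygen is lacking, was higher on 13 of 13, by 1.27-fold (adjusted p = 3.23e-07), and its profile ran opposite to the members' mean (r = -0.717 over the 13 arrays). Of 9 heme- and oxygen-regulated genes 0 were periodic in limma (1 at an unadjusted p under 0.05, against the same shares of all genes). Of these 9, 5 were called higher and 4 lower, against 33.6% and 32.0% of all genes. The hypoxic genes among them did not go one way: COX5B was 1.35-fold and AAC3 1.29-fold higher than the reference (adjusted p = 3.20e-05 and 1.47e-06), and ANB1 was 1.06-fold and TIR1 1.10-fold lower (0.0389 and 0.00919).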

How the data were processed

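RNA of 13 time points was measured on 1 two-colour array each. The deposited values are log ratios, read as log10 of Cy5 over Cy3; the dyes are those given per the labels, and the base was inferred because 18 gene values have a size of exactly 2 and the largest other is 1.61. No source used here gives the background correction, normalisation or filters. The deposited array medians, between -2.6e-05 and 0.0078, show values already centred by a method that stays unknown. No scanner files were used here.

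Values at the limits were set to missing (none in the 10 members), 12 control rows were left out, arrays were centred on their median, and genes with values on at least 10 of 13 arrays were kept. Symbols came from RefSeq R64 by locus tag for 5703 of 6205 genes, and each gene has 1 row. R 4.3.3 and limma 3.58.1 (lmFit, eBayes) fitted intercept, linear time, cosine and sine. The period, 62 min, had the smallest residual between 50 and 80 min on the mean of 32 measured G1/S genes. The arrest fit had a term for the 0 min array and no linear time. P-values are two-sided, adjusted by Benjamini-Hochberg over all genes, threshold 0.05, and measure scatter around the curve in 1 culture. The fits were tried on simulated data with scatter drawn independently for each array. Such data cannot show how the p-values hold where neighbouring arrays of 1 culture depend on each other.

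The members, lists and tests were chosen with earlier results of these data known. Genes named beyond the members passed a test or, where none of a list did, had the largest mean difference. Others had profiles most like or most opposite to the members' mean, or served to check the strain label and the phase. UPC2, ECM22, ERG4, ERG20, ANB1, TIR1, NCP1 and CYB5 were added after their values were seen. The planned search of promoter motifs was not run.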

Additional observations from a re-analysis of the deposited data

How the results depend on the processing

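The 13 arrays follow 1 culture, so the number of arrays and not replicate cultures sets the precision, and spot brightness is unknown. No paired analysis was possible because each time point is 1 sample. The cause of the changes below was not tested. The 922 genes periodic over all arrays were 1530 with array weights, 2274 with a robust fit, 455 with a period 5 min shorter and 212 with a second harmonic, and 486 to 985 with 1 array left out (576, 594, 524 and 486 without the 20, 30, 40 and 50 min arrays). Of the members, 4 became 1 with a shorter period or second harmonic, and 6 with array weights or a period 5 min longer. They became 7 without the 0 and 10 min arrays, and 2 (without 20 min) to 5 with 1 array left out. With a second harmonic ERG5 was the member called, and with a shorter period ERG26. A period of 63 min, added after seeing the data, left 4 members called.

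The 4036 genes called against the reference were 3815 to 4051 with 1 array left out, and 6 to 7 members were. At 1.5-fold, 425 genes were 388 to 451, and 9 with the values read as base 2; 0 members became 1, ERG3, without the 10, 100 or 110 min array. The 142 drifting genes were 357 with array weights, 851 with a robust fit, 86 with a shorter period, 94 with a period of 60 min and 44 with a second harmonic. With 1 array left out they were 33 to 224 (72, 70, 35, 83, 33, 34, 75 and 224 without 20, 30, 40, 70, 80, 90, 100 and 120 min). Members drifting were 2 with array weights or a robust fit, and 0 to 1 with 1 array left out. The 104 genes leaving the curve at 0 min were 612 with a robust fit (1 member) and 79 to 187 with 1 array left out (187 without 10 min; 0 members throughout). HMG1 minus HMG2 stayed between -0.14 and -0.11 with 1 array left out (exact permutation p from 0.000977 to 0.00195).

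Signs turned only in values that passed no test. With array weights the drift became -0.0012 in ERG25 and -0.050 in ERG3, and the departure at 0 min 0.0019 in ERG1. With a robust fit that departure became -0.0024 in ERG5, and with linear time in that fit 0.013 in HMG1, 0.0085 in ERG11, -0.033 in ERG26 and -0.066 in ERG6. With 1 array left out, drift ran from -0.015 to 0.036 in ERG3, -0.0073 to 0.037 in ERG5, -0.018 to 0.0054 in ERG1 and -0.014 to 0.00095 in HMG2, and the departure at 0 min from -0.025 to 0.062 in ERG5, -0.035 to 0.023 in HMG1, -0.022 to 0.014 in ERG1 and -0.040 to 0.0016 in ERG11.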
